A study of Rattus norvegicus with 6 samples.

Results

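The interferon regulatory factors examined here are Irf1, Irf2, Irf3, Irf4, Irf5, Irf7, Irf8 and Irf9, taken as the rows of the deposited gene table that carry these names, 8 of its 40154 genes. Their transcripts were measured by mRNA sequencing of poly(A)-selected RNA in rat atrial fibroblasts, the matrix-producing cells of the atrial wall. The cells came from the hearts of Sprague-Dawley rats 1 to 3 days old, were separated from atrial myocytes by their faster attachment to the dish, and were labelled as heart (atrial muscle) with the treatment "Atrial differentiation" in every sample. They were transfected for 24 h with a control siRNA (si-NC, 3 libraries) or with an siRNA against GPD1L (si-GPD1L, 3 libraries), and the question put to the factors is which of them were at one level in all 6 libraries and which rose. The labels do not say whether the digit after si-GPD1L counts replicates or different siRNAs, nor whether the libraries came from separate animals or cultures, so the p-values measure only the spread between these libraries. Every library was transfected, and an untransfected group was not analysed here.

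Interferon regulatory factors are transcription factors that share a DNA-binding domain and recognise the GAAA repeats of the interferon-stimulated response element (ISRE). Irf3 and Irf7 wait in the cytoplasm and, once phosphorylated by the kinases Tbk1 and Ikbke downstream of nucleic acid sensors, enter the nucleus and switch on type I interferon genes, while Irf9 is part of ISGF3, the complex that carries the interferon signal to the ISRE. Irf1 is an activator induced by interferon-gamma through the gamma-activated site (GAS), Irf2 competes with it for the same sites, Irf5 acts downstream of Toll-like receptors and MyD88, and Irf4 and Irf8 are best known from lymphocytes, macrophages and dendritic cells.

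The promoters of the 3 members that rose and of Irf3, the member with the highest level in si-NC, are shown first, because the members differed in the response elements that these windows hold. RefSeq promoter windows on build GRCr8, from 250 bases before to 50 bases after the annotated start, were found for 7 of the 8 members. They were searched on both strands for the ISRE (GAAA, 2 bases of any kind and another GAAA), the GAS (TTCNNNGAA) and the NF-kB motif, and capitals mark the matches. The windows are chr1:205799974-205800273 on the minus strand for Irf7, chr15:33065586-33065885 on the plus strand for Irf9, chr10:38417685-38417984 on the plus strand for Irf1 and chr1:104616358-104616657 on the plus strand for Irf3.
Irf7: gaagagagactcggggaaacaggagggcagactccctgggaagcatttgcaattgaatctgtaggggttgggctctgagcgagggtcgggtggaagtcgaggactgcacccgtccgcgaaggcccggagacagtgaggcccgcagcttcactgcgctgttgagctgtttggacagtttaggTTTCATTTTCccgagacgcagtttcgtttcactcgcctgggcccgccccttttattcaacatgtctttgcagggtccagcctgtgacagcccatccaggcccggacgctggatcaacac
Irf9: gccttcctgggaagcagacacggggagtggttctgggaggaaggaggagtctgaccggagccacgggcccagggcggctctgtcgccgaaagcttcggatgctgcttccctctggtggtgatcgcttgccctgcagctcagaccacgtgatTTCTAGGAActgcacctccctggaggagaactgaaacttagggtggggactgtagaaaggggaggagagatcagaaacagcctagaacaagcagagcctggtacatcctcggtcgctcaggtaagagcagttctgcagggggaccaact
Irf1: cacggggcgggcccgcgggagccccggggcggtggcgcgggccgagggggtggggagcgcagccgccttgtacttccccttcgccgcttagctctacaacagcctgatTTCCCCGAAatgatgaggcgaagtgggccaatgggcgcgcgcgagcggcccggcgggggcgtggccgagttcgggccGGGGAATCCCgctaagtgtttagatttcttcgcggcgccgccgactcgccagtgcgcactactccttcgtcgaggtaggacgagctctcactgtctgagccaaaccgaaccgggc
Irf3: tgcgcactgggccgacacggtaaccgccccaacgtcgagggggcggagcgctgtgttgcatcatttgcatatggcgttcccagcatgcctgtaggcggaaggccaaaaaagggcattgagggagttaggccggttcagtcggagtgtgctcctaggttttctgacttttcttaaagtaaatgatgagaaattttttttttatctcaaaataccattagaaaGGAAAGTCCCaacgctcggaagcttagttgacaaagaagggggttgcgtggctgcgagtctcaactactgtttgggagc

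Irf7 was the only 1 of the 7 members with a window whose promoter held an ISRE, on the minus strand of the gene at positions -69 to -60 from the start, while 3.92% of 33469 promoter windows in the table held this motif. A GAS lay in the windows of 3 members, at positions -99 to -91 from the start in Irf9, -142 to -134 in Irf1, and both -180 to -172 and -161 to -153 in Irf8. The GAS was found in 8.87% of all windows. An NF-kB match lay in the windows of 2 members, at positions -65 to -56 in Irf1 and -29 to -20 in Irf3, and 7.51% of all windows held one. No listed motif overlapped another in these windows, and none was found in those of Irf4 and Irf5. A match is a run of letters and not a measured binding site, and its part in the changes given here was not tested.

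**Figure D1:**
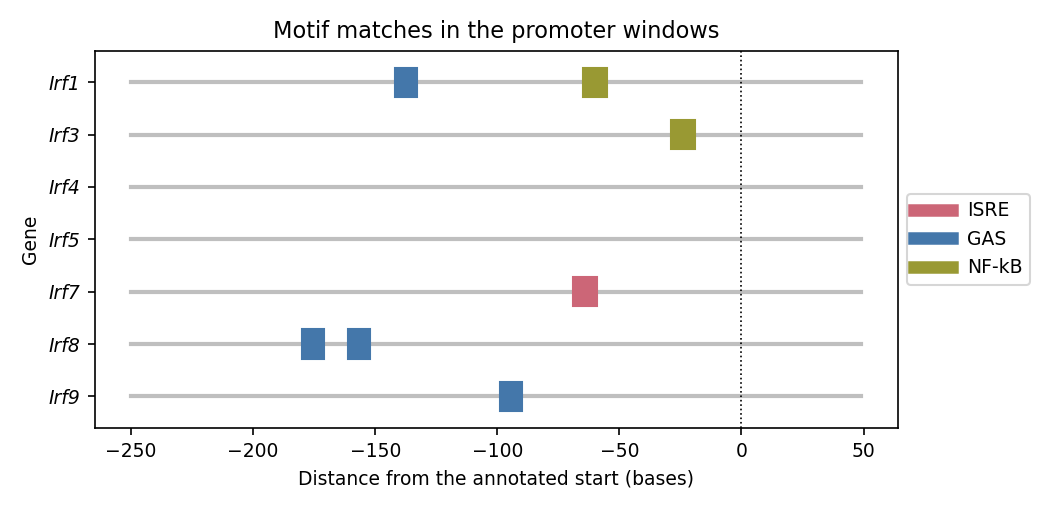
Matches to the ISRE, GAS and NF-kB motifs along the promoter windows of 7 interferon regulatory factors, with the distance from the annotated start in bases on the x axis and 1 grey line per gene. The ISRE appears in Irf7 alone among these 7, GAS matches appear in Irf1, Irf8 and Irf9, and the lines of Irf4 and Irf5 are empty.

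The libraries held between 16892255 and 20149732 counts, and TMM factors, which correct for the make-up of each library, ran from 0.994 to 1.01. Gpd1l, the gene the siRNA is directed against, had raw counts of 265, 314 and 321 under si-NC and of 202, 229 and 303 under si-GPD1L as labelled. Normalized, it averaged 303 ± 36.3 against 244 ± 51.3 (SD, n = 3 each), and the log2 fold change of -0.31 (SE 0.147) did not pass the threshold (adjusted p = 0.234, edgeR quasi-likelihood test). In the library labelled si-GPD1L replicate 3 Gpd1l stood at 302 normalized counts, inside the si-NC range, so the direction of each change below is that between the libraries as labelled. A normalized count is a count scaled to the mean effective library size, and genes were called where the adjusted p was below 0.05 and the absolute log2 fold change above 1. Fibroblast markers summed to between 69180 and 85564 CPM (counts scaled by library total, without length) in si-NC and between 80216 and 85087 in si-GPD1L, and all 9 of them passed the filter on low counts.

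Irf7 and Irf9 rose past both thresholds in the libraries labelled si-GPD1L, Irf1 rose by less than the fold threshold, Irf2, Irf3, Irf5 and Irf8 did not pass the test, and Irf4 was too low to be tested. Irf7 went from 69.6 to 4083 normalized counts, Irf9 from 462 to 1616 and Irf1 from 361 to 546. Of the 7 members tested, 2 were called higher and 0 lower, where 1.48% of the 14852 genes tested were called higher and 1.62% in either direction. By the adjusted p alone 3 members passed, all of them higher, against 4.03% of genes tested higher and 6.36% in either direction. The normalized counts of the groups did not overlap, with si-GPD1L higher, for 4 members, namely Irf1, Irf7, Irf9 and the untested Irf4, and this held for 15.1% of the genes tested, or 29.0% in either direction. The median log2 fold change of the tested members was 0.59, beside -0.0049 over all genes tested.

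**Figure D2:**
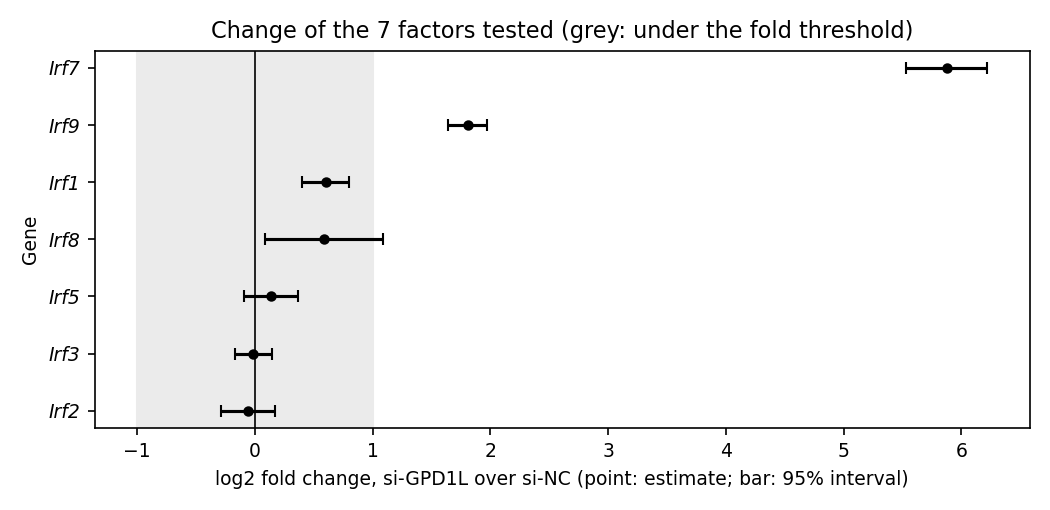
Log2 fold change of si-GPD1L over si-NC on the x axis for the 7 interferon regulatory factors tested, 1 row per gene, with points for the estimates of edgeR's quasi-likelihood fit, bars for 95% intervals and a grey band for absolute values under 1. Irf7 at 5.87 and Irf9 at 1.81 lie to the right of the band, and the interval of Irf1 lies above 0 and inside the band. That of Irf8 runs from 0.083 to 1.09, above 0 and past the edge of the band, and the intervals of Irf2, Irf3 and Irf5 include 0.

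Irf3 is the sensor-activated factor that most cells keep in store. It lies at chr1:100992244-100997202 on the plus strand in rn6 (gene 292892), and was the most abundant member in si-NC. The raw counts of Irf3 were 1298, 1340 and 1402 in si-NC and 1223, 1426 and 1409 in si-GPD1L. The groups overlapped, and their means differed by less than the spread within either. Normalized counts of Irf3 averaged 1357 ± 68.1 in si-NC against 1345 ± 56.1 in si-GPD1L (SD, n = 3 each). The fold change of 0.992 had a 95% interval from 0.891 to 1.10 (adjusted p = 0.946, edgeR quasi-likelihood test). Bcl2l12 overlaps Irf3 by 1026 bases on the opposite strand, and whether the counting used strand is not given in the sources used here, so reads of that stretch cannot be assigned with certainty. Bcl2l12 had 240 ± 26.4 and 253 ± 24.7 normalized counts (SD, n = 3 each), far under Irf3, with a log2 fold change of 0.077 (SE 0.12, adjusted p = 0.758, edgeR).

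Irf7, the close relative of Irf3 that most cells make in quantity only after interferon has acted, had the largest change of the family. It lies at chr1:214249388-214252909 on the minus strand in rn6 (gene 293624). Its raw counts were 60, 73 and 74 in si-NC and 3311, 5488 and 3656 in si-GPD1L. Each library labelled si-GPD1L was far above each si-NC library, with replicate 2 the highest. Normalized counts averaged 69.6 ± 9.25 in si-NC against 4083 ± 784 in si-GPD1L (SD, n = 3 each), a 58.7-fold difference with a 95% interval from 46.2 to 74.5. On the log2 scale this was 5.87 (SE 0.159, adjusted p = 1.14e-10, edgeR quasi-likelihood test), which ranked 23 by fold and 7 by p among the 14852 genes. Relative to the si-NC mean the 3 libraries stood at 51.9, 71.7 and 52.4 times. The value of 52.4 belongs to the library labelled si-GPD1L replicate 3, whose Gpd1l was not lower than in si-NC, and without that library the log2 fold change was 5.95 (adjusted p = 6.53e-09, edgeR). An exact two-sided permutation test of the normalized counts gave p = 0.10, the smallest that 3 against 3 libraries allow.

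In the deposited transcript table a read shared by isoforms can be counted for each of them. The 3 Irf7 transcripts there had ratios of 56.8 to 58.9 between the groups in CPM. Each of them held 70% to 100% of the Irf7 gene count in every library, so near-equal ratios do not show which isoforms rose. The genes beside Irf7 did not pass the test. Phrf1, 482 bases away on the opposite strand, had a log2 fold change of 0.023 (SE 0.0901, adjusted p = 0.913, edgeR). Cdhr5, 2209 bases away, had 10, 11 and 13 counts in si-NC and 9, 34 and 25 in si-GPD1L (log2 fold change 0.96, SE 0.424, adjusted p = 0.207, edgeR). Of the other tested neighbours within 5 kb of a member with a gene name, Scaf1 beside Irf3 had a log2 fold change of 0.13 (adjusted p = 0.323, edgeR) and Tnpo3 beside Irf5 one of 0.028 (adjusted p = 0.869, edgeR). By the Euclidean distance of centred log2 CPM over the 6 libraries, the genes most like Irf7 were Isg15 (0.447), Dhx58 (0.666) and Oas1b (0.683).

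Irf9, the DNA-binding subunit of ISGF3, rose 3.50-fold with very little spread. It lies at chr15:34282936-34288981 on the plus strand in rn6 (gene 305896). Raw counts of Irf9 were 445, 473 and 457 in si-NC and 1448, 1823 and 1616 in si-GPD1L, with no overlap between the groups. Normalized counts went from 462 ± 33.3 to 1616 ± 39.2 (SD, n = 3 each), and the 3 libraries labelled si-GPD1L stood at 3.42, 3.59 and 3.49 times the si-NC mean. These libraries differed among themselves by far less than from si-NC. The log2 fold change was 1.81 (SE 0.077, 95% interval 1.64 to 1.97, adjusted p = 5.17e-09, edgeR quasi-likelihood test), rank 118 by fold and 41 by p. The exact two-sided permutation test again gave the smallest possible p of 0.10, and with si-GPD1L replicate 3 left out the log2 difference was 1.81 (adjusted p = 4.84e-07, edgeR). The 4 Irf9 transcripts had ratios of 3.26 to 3.42.

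Rnf31, a subunit of the linear ubiquitin ligase, ends 551 bases before Irf9 on the same strand. It had 349, 370 and 374 raw counts in si-NC and 547, 706 and 593 in si-GPD1L, so its groups did not overlap either. Its log2 fold change of 0.73 (SE 0.0888, adjusted p = 2.38e-04, edgeR) passed the adjusted p and stayed under the fold threshold. The genes most like Irf9 over the 6 libraries were Lgals3bp, Sp100 and Sp110, at distances of 0.179, 0.183 and 0.187, with log2 fold changes of 1.89, 1.78 and 1.81. Stat2, the constitutive partner of Irf9, rose as well and went from 963 ± 23.8 to 4378 ± 358 normalized counts (SD, n = 3 each, log2 fold change 2.18, SE 0.079, adjusted p = 8.77e-10, edgeR). Stat2 was higher in all 3 libraries labelled si-GPD1L than in any si-NC library.

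Irf1 and Irf2, the activator and its competitor, had unlike values. Irf1 lies at chr10:39109530-39116532 on the plus strand in rn6 (gene 24508), and had 341, 367 and 365 raw counts in si-NC and 472, 638 and 545 in si-GPD1L. The groups did not overlap. Normalized counts of 361 ± 25.9 and 546 ± 32.7 (SD, n = 3 each) gave a fold change of 1.52 with a 95% interval from 1.32 to 1.75 (log2 fold change 0.60, SE 0.093, adjusted p = 0.00201, edgeR quasi-likelihood test). Its rank of 669 by fold and 213 by p placed it well behind Irf7 and Irf9. The exact two-sided permutation p was 0.10, and with si-GPD1L replicate 3 left out the log2 difference was 0.60 (adjusted p = 0.0126, edgeR). The genes most like Irf1 were Cdh18, Cyp2j4 and Atf3, at distances of 0.117, 0.118 and 0.126, of which Cdh18 had only 11.4 normalized counts in si-NC and did not pass the test (adjusted p = 0.282, edgeR).

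Irf2 lies at chr16:48582354-48732129 on the minus strand in rn6 (gene 290749). It had 383, 378 and 426 raw counts in si-NC and 310, 418 and 430 in si-GPD1L, and the groups overlapped. Its normalized counts were 398 ± 18.6 and 382 ± 45.7 (SD, n = 3 each), a fold change of 0.961 with a 95% interval from 0.822 to 1.12 (adjusted p = 0.797, edgeR). The 1.52-fold value of Irf1 lies outside this interval. The ratio of Irf1 to Irf2, taken within each library on the TPM scale, which divides counts by gene length, was 1.28, 1.40 and 1.24 in si-NC and 2.20, 2.20 and 1.83 in si-GPD1L. It did not overlap between the groups, with a mean ratio of 1.31 ± 0.0846 against 2.07 ± 0.214 (SD, n = 3 each) and an exact two-sided permutation p of 0.10, the smallest possible.

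Irf5, the factor of Toll-like receptor signalling, stood in place 5 of the si-NC order and place 6 of the si-GPD1L order by the TPM of the gene table. By transcript TPM summed per gene, where a shared read can count for each of its 6 transcripts, Irf5 stood in places 3 and 4. It lies at chr4:56804477-56816271 on the plus strand in rn6 (gene 296953), with 229, 204 and 237 raw counts in si-NC and 235, 281 and 230 in si-GPD1L. Normalized counts were 225 ± 7.90 and 247 ± 15.2 (SD, n = 3 each), and the lowest si-GPD1L library lay within the si-NC range. The fold change of 1.10 had a 95% interval from 0.940 to 1.29 and did not pass the test (adjusted p = 0.472, edgeR).

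Irf8, which directs the development of monocytes and dendritic cells, was lower still by the TPM of the gene table. It lies at chr19:54314859-54336643 on the plus strand in rn6 (gene 292060), with 37, 47 and 43 raw counts in si-NC and 70, 53 and 69 in si-GPD1L. The normalized count of si-GPD1L replicate 2, 48.2, lay within the si-NC range of 36.6 to 49.7, and the other si-GPD1L libraries were above it at 76.3 and 68.9. Irf8 had a fold change of 1.50, nearly that of Irf1, but with a 95% interval from 1.06 to 2.13, and it did not pass the adjusted p (log2 fold change 0.59, SE 0.231, adjusted p = 0.157, edgeR). The unadjusted p of Irf8 was 0.026 (edgeR), and its interval did not include equal levels, so it failed after the adjustment over all genes tested. Macrophage markers were not called in either direction. The 13 markers, Ptprc, Csf1r and Cd68 among them, summed to between 172 and 186 CPM in si-NC and between 146 and 211 in si-GPD1L, with 0 called by either rule, 0 at an unadjusted p under 0.05 (edgeR), 0 called by DESeq2 and a median log2 fold change of -0.023. In RNA from a whole culture, fewer cells of a type and less RNA per cell cannot be told apart.

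Irf4, the factor of plasma cells and activated lymphocytes, was at the edge of detection. It lies at chr17:34886746-34905191 on the minus strand in rn6 (gene 291100). It had 3, 1 and 3 raw counts in si-NC and 7, 9 and 5 in si-GPD1L, and did not pass the filter on low counts. Its si-NC libraries were at or under the floor of 3 counts that a count of 0 allows. Fitted without the filter it had a log2 fold change of 1.52 (SE 0.849, 95% interval -0.14 to 3.18, adjusted p = 0.365, edgeR). Of the 7 B cell and plasma cell markers 3 were at 0 in every library and 0 were high enough to test, with summed levels of 0.230 to 0.646 CPM in the si-NC libraries against 0.163 to 0.396 in those of si-GPD1L. The 6 dendritic cell markers held 2 at 0 in every library and summed to 15.5 to 18.003 CPM under si-NC and 16.6 to 18.03 under si-GPD1L. Zbtb46 was the one of them that could be tested, at 268 to 353 raw counts in the 6 libraries and a log2 fold change of 0.060 that was not called. It made up nearly all of the dendritic cell sum. The 6 T cell markers held 2 at 0, Cd3e and Cd3d. They summed to 4.25 to 5.20 CPM under si-NC and 3.50 to 4.83 under si-GPD1L. Most of this sum was Cd4, the one tested, at 52 to 89 raw counts, with a log2 fold change of -0.15 that was not called. The dendritic cell and T cell sums thus rest mainly on 1 gene each and are no measure of how many such cells were present.

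The transcript table was read in the same way for the other members. Ratios between the groups in CPM were 0.946 to 0.962 over the 6 Irf3 transcripts, 0.910 to 0.936 over the 3 of Irf2, 1.06 to 1.08 over the 6 of Irf5 and 1.30 to 1.45 over the 2 of Irf8. The single Irf1 transcript had a ratio of 1.46. The 3 transcripts of Irf4, with at most 9 counts in a library, had ratios of 1.94 to 3.16. Transcripts of a gene share reads.

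On the TPM scale the members spanned more than 3 orders of magnitude, and the order of their levels changed. In si-NC the mean TPM was 83.8 ± 7.81 for Irf3, 22.7 ± 2.45 for Irf1, 18.9 ± 1.92 for Irf9, 17.3 ± 1.61 for Irf2, 6.07 ± 0.360 for Irf5, 4.34 ± 0.751 for Irf7, 1.92 ± 0.361 for Irf8 and 0.0605 ± 0.0280 for Irf4 (SD, n = 3 each). The ranges of Irf1 and Irf9, and of Irf9 and Irf2, overlapped over the 3 libraries, so these neighbours did not differ beyond their spread, while the other neighbours did not overlap. In si-GPD1L the order was Irf7 at 269 ± 52.9 TPM, Irf3 at 87.9 ± 3.67, Irf9 at 69.9 ± 2.09, Irf1 at 36.3 ± 2.38, Irf2 at 17.6 ± 2.17, Irf5 at 7.08 ± 0.425, Irf8 at 3.05 ± 0.676 and Irf4 at 0.193 ± 0.0474 (SD, n = 3 each). No neighbours in that order overlapped. Between the groups, the TPM of Irf5 (5.79 to 6.48 against 6.59 to 7.35) and of Irf8 (1.55 to 2.27 against 2.29 to 3.59) did not overlap, unlike their normalized counts, on which the test was made. For every member tested the ratio of mean TPM between the groups was above the fold change of the counts. It was 1.05 against 0.992 for Irf3 and 1.17 against 1.10 for Irf5. The share of all genes whose TPM did not overlap was not computed, so these separations are not read as a rise. Irf7 thus moved from the sixth place to the first, and among all genes tested its level rose from above 28.3% of them to above 96.5%, whereas Irf3 stood above 87.6% of them in both groups and Irf9 went from 57.0% to 84.3%. The transcript table, summed per gene, gave other places to Irf1, Irf5 and Irf9. Such a sum can count a shared read for each transcript, of which Irf1 has 1, Irf5 6 and Irf9 4, and its part in these places was not tested.

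**Figure D3:**
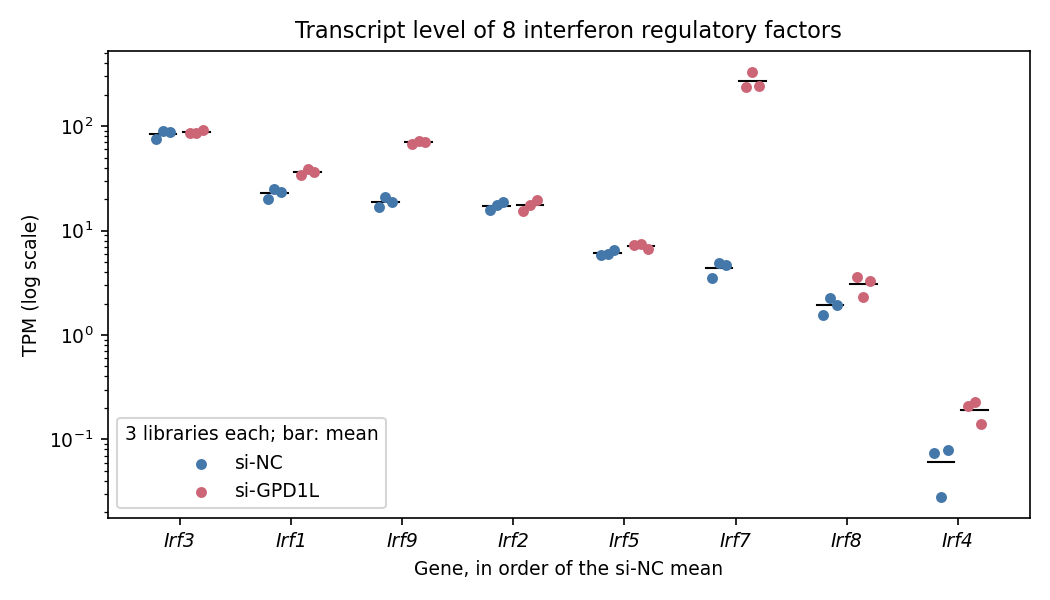
TPM on a log scale for 8 interferon regulatory factors in order of their si-NC mean, with 1 point per library (blue si-NC, red si-GPD1L, 3 each) and bars at the group means. The red points of Irf7, 236 to 330 TPM, stand far above its blue points of 3.48 to 4.89 TPM, those of Irf9, Irf1, Irf5, Irf8 and Irf4 also lie above their blue points, and the points of Irf3 and Irf2 overlap. The normalized counts of Irf5 and Irf8 overlapped between the groups.

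The make-up of the family's transcripts was almost the same in the 3 si-NC libraries and changed in all 3 si-GPD1L libraries. Irf3 made up 53.8% to 54.2% of the summed member TPM in the si-NC libraries, against 15.4% to 19.7% in those of si-GPD1L. Irf7 made up 2.52% to 2.95% in the former and 51.3% to 59.6% in the latter, while the mean level of Irf3 was 83.8 TPM in the former and 87.9 TPM in the latter. The shares of Irf1 went from 14.3% to 14.99% in si-NC down to 7.002% to 7.73% although its level rose. Irf9 held 11.7% to 12.6% in the si-NC libraries and 13.0% to 15.04% in those of si-GPD1L. The summed member TPM went from between 138 and 166 to between 451 and 553. Within each library the ratio of Irf7 to Irf3 TPM was 0.0465, 0.0548 and 0.0531 in si-NC and 2.72, 3.87 and 2.61 in si-GPD1L, a 58.8-fold difference in which any scaling of a library cancels (exact two-sided permutation p = 0.10, the smallest possible). The ratio of Irf9 to Irf3 went from 0.227, 0.233 and 0.216 to 0.783, 0.845 and 0.759, a 3.53-fold difference with the same permutation p of 0.10.

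**Figure D4:**
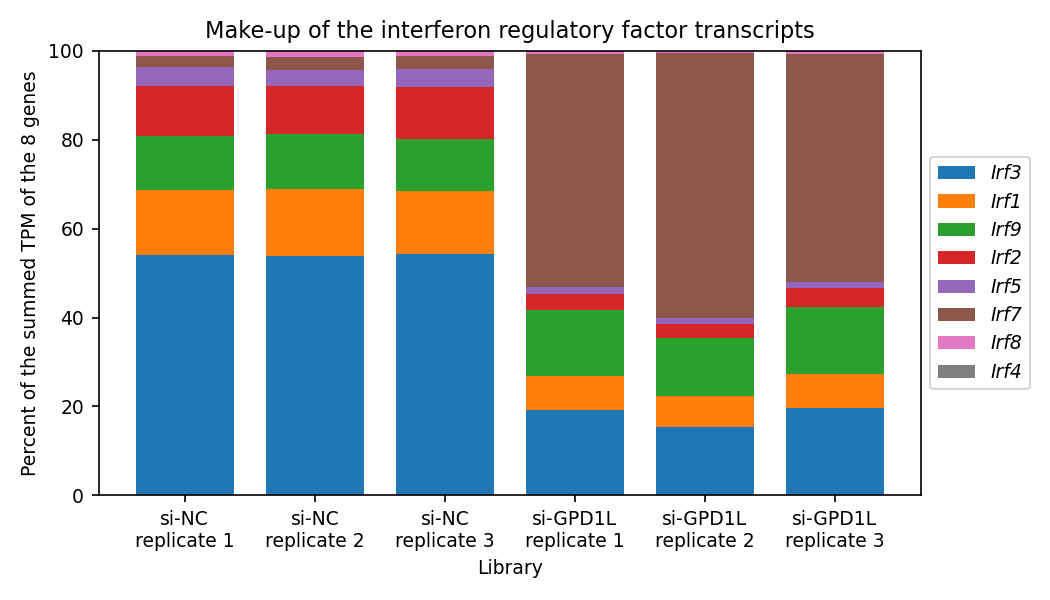
Share of each of the 8 interferon regulatory factors in their summed TPM, in percent on the y axis, as 1 stacked bar per library. Irf3 (blue) fills 53.8% to 54.2% of each si-NC bar, and Irf7 (brown) fills 51.3% to 59.6% of each si-GPD1L bar.

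The listed kinases and adaptors that activate Irf3, Irf5 and Irf7 held no member that passed the test. Nucleic acid sensors, which act before them, were not in this list. The sensors Ddx58 and Ifih1, counted among the targets below, were called higher, with log2 fold changes of 3.04 (SE 0.0954) and 2.67 (SE 0.0843). The list held 17 names, of which Tmem173 and Sting1 stand for the same gene, found under Tmem173. The 16 names in the table were all tested, with 0 called in either direction by either rule of the edgeR test. Their median log2 fold change was -0.0057, with a range from -0.31 to 0.21. DESeq2 and the exact test of edgeR also called 0, and 3 had an unadjusted p under 0.05. The smallest adjusted p in the list belonged to Traf3, an adaptor of the Irf3 and Irf7 pathway (log2 fold change 0.21, SE 0.0861, adjusted p = 0.168, edgeR), then to Chuk (-0.21, adjusted p = 0.191) and Tbkbp1 (-0.31, adjusted p = 0.196). These tests read transcript levels and say nothing of phosphorylation.

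The listed interferon genes, which include type I genes that Irf3 and Irf7 are known to switch on, were at or near 0 counts. Of 11 listed genes 9, Ifnb1 among them, had 0 counts in every library, 10 had at most 3 in every library and none passed the filter. Ifne, the exception, had 18, 3 and 9 counts in si-NC and 5, 16 and 6 in si-GPD1L, with overlapping groups. A count of 0 allows up to 3 counts in a library, so a level under that was not detectable at this depth. Of the receptor genes, Ifngr1, a chain of the interferon-gamma receptor, passed the adjusted p alone, with a log2 fold change of 0.32 (SE 0.0650, adjusted p = 0.0113, edgeR). Without si-GPD1L replicate 2 the adjusted p of Ifngr1 was 0.0987, and without replicate 1 it was 0.0745 (edgeR).

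Among 15 genes that restrain or modify the factors, 6 rose past both thresholds and 0 fell, with a list median of 0.19. Of all genes tested, 1.48% were called higher. The list was chosen with results of these libraries known, so the count describes it and tests nothing. Usp18, near 0 in si-NC, passed the filter on low counts only through si-GPD1L, and 5 were called with at least 10 counts required in every library. Usp18, the protease that removes Isg15 and blocks the interferon receptor, had 1, 2 and 7 raw counts in si-NC and 980, 1459 and 1068 in si-GPD1L (log2 fold change 8.37, SE 0.243, adjusted p = 1.73e-10, edgeR). Without si-NC replicate 3 the log2 fold change of Usp18 was 9.44. Isg15, the ubiquitin-like modifier that is attached to Irf3 among other proteins, had 13, 22 and 14 raw counts in si-NC and 926, 1402 and 947 in si-GPD1L (log2 fold change 6.02, SE 0.192, adjusted p = 2.82e-10, edgeR). The groups of these genes were far apart, and si-GPD1L replicate 2 was the highest library in both, as it was for Irf7. Ifi35 went from 164 ± 20.3 to 547 ± 36.6 normalized counts (SD, n = 3 each, log2 fold change 1.74, SE 0.111, adjusted p = 3.61e-07, edgeR). The co-repressors named for their binding to Irf2, Irf2bp1, Irf2bp2 and Irf2bpl, had log2 fold changes of -0.10, 0.037 and 0.0016 and did not pass the test.

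The partners of Irf4 and Irf8 in blood cells were mostly low. Of 9 listed genes 5 were tested and 1 was called, Batf2, a partner of Irf8 and Irf1 in macrophages, with 1, 4 and 0 raw counts in si-NC and 31, 44 and 44 in si-GPD1L (log2 fold change 4.45, SE 0.541, adjusted p = 2.45e-04, edgeR). With so few counts in si-NC the fitted value moved from 3.88 without si-NC replicate 3 to 6.00 without si-NC replicate 2. Batf3, a partner of Irf8 in dendritic cells, had a log2 fold change of -0.74 (SE 0.307, adjusted p = 0.176, edgeR, and 0.0472 to 0.533 over the alternatives), and Bcl6 had 0.17 (SE 0.117, adjusted p = 0.433, edgeR). Spib and Ikzf3 had at most 3 counts in every library. The list median was 0.064, and 1.48% of all genes tested were called higher. Batf2 passed the filter on low counts only through si-GPD1L.

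**Figure D5:**
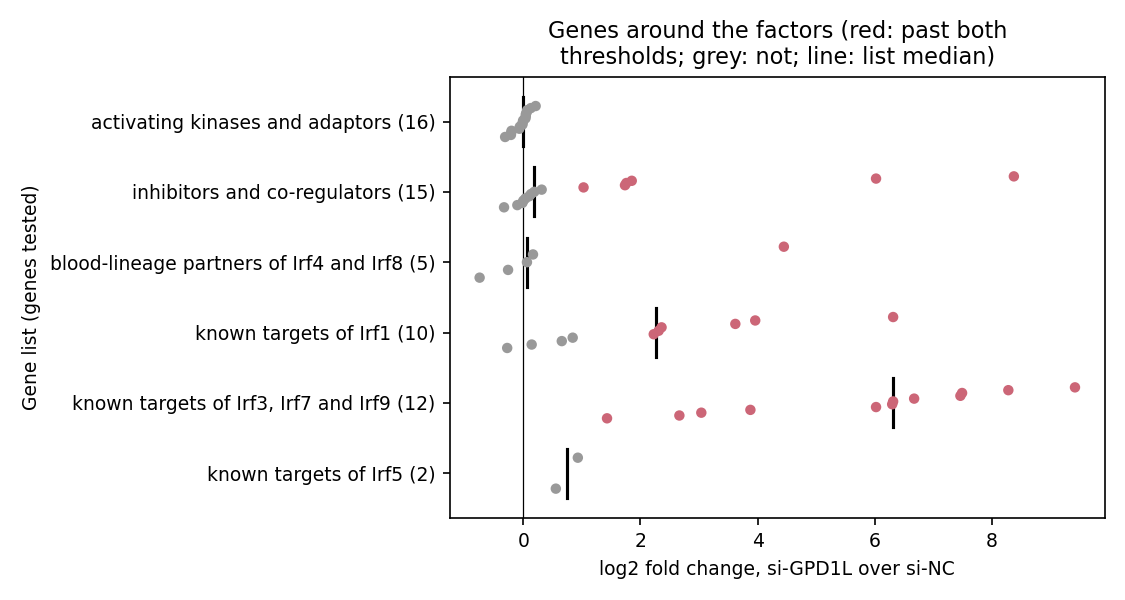
Log2 fold change of si-GPD1L over si-NC on the x axis for the tested genes of 6 lists around the interferon regulatory factors, 1 row per list, with red points past both thresholds, grey points not past both and black lines at the list medians. All 16 kinases and adaptors lie between -0.31 and 0.21, while all 12 tested targets of Irf3, Irf7 and Irf9 are red, from 1.43 to 9.42. Targets near 0 in si-NC passed the filter on low counts only through si-GPD1L.

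The known targets of the factors are given by factor. Of 13 targets of Irf3, Irf7 and Irf9, 12 were tested and all 12 were called higher, where 1.48% of all genes tested were. Their median log2 fold change was 6.31, with a range from 1.43 to 9.42. Targets near 0 in si-NC passed the filter on low counts only through si-GPD1L, and a target low in both groups was not tested. The share called among those tested was thus in part set by the filter. With at least 10 counts required in every library, 4 were called. Mx2, an antiviral GTPase, had 5, 7 and 9 raw counts in si-NC and 4303, 6091 and 4488 in si-GPD1L (log2 fold change 9.42, SE 0.163, adjusted p = 3.54e-12, edgeR). Ifit1, which binds foreign RNA ends, had 10, 6 and 9 raw counts in si-NC and 564, 759 and 703 in si-GPD1L (log2 fold change 6.30, SE 0.163, adjusted p = 9.45e-11, edgeR). Mx2 and Ifit1 were near 0 in every si-NC library and high in every si-GPD1L library, and the genes of the Mx and Ifit families can share reads with their close copies. Mx1 had 5, 9 and 5 raw counts against 1687, 2705 and 1764 (log2 fold change 8.28, SE 0.221, adjusted p = 1.14e-10, edgeR). Other called targets were not near 0 in si-NC, such as Ifit2 at 1352 to 1666 raw counts, Ddx58 at 226 to 292 and Ifih1 at 204 to 216. Ccl5, the untested gene, had 0 in each si-NC library and 2, 9 and 1 in si-GPD1L. The list was chosen with results of these libraries known, so its count is a description.

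Of 12 targets of Irf1, 10 were tested, 6 were called higher and 0 lower, with a median log2 fold change of 2.27. Over all genes tested 1.48% were called higher, and this list too was chosen with results of these libraries known. Cxcl10, near 0 in si-NC, passed the filter on low counts only through si-GPD1L. Nos2 and Ciita, low in both groups, were not tested, so the share called was in part set by the filter. With at least 10 counts required in every library, 4 were called. Gbp2, a guanylate-binding protein, went from 65.9 ± 6.79 to 1025 ± 112 normalized counts (SD, n = 3 each, log2 fold change 3.96, SE 0.123, adjusted p = 2.62e-10, edgeR). Tap1, the peptide transporter of antigen presentation, went from 271 ± 13.5 to 1345 ± 108 (SD, n = 3 each, log2 fold change 2.31, SE 0.0888, adjusted p = 1.75e-09, edgeR). Cxcl10, a chemokine that also stands in the list of Irf3, Irf7 and Irf9 targets as Isg15 stands in that and the inhibitor list, had 6, 3 and 2 raw counts in si-NC and 255, 327 and 335 in si-GPD1L (log2 fold change 6.31, SE 0.245, adjusted p = 1.94e-09, edgeR). Among the 4 tested targets not called, Il15 had a log2 fold change of -0.27 (SE 0.0969, adjusted p = 0.118, edgeR) and Casp1 one of 0.14 (SE 0.423, adjusted p = 0.880, edgeR). Tap2 had one of 0.66 (SE 0.367, adjusted p = 0.319, edgeR). B2m, at 0.84 (SE 0.110, adjusted p = 4.58e-04, edgeR), passed the adjusted p and stayed under the fold threshold. By the adjusted p alone 7 targets in the list were higher, where 4.03% of all genes tested were. The groups of Il15 nearly touched, at 557.3 normalized counts in the lowest si-NC library and 557.2 in the highest of si-GPD1L. Groups did not overlap in either direction for 29.0% of the genes tested. Nos2 had at most 1 count in any library. Of 5 targets of Irf5, the cytokine genes, only Il12a and Il6 were tested and 0 were called, with log2 fold changes of 0.93 (SE 0.428, adjusted p = 0.222, edgeR) and 0.56 (SE 0.344, adjusted p = 0.368, edgeR), and Il12b was at 0 in every library. DESeq2 called 0 of them as well, and 1 had an unadjusted p under 0.05 in edgeR.

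Markers of other cells were set beside these changes. Endothelial markers moved in the same direction, from between 37.0 and 45.6 to between 54.5 and 64.3 summed CPM, with 2 of the 7 tested called higher, Plvap (log2 fold change 1.44, SE 0.183, adjusted p = 3.51e-04, edgeR) and Cdh5 (1.07, SE 0.178, adjusted p = 0.00337, edgeR), none of the 8 at 0 and a median of 0.87. By the adjusted p alone 4 of them passed, with Pecam1 (0.90, SE 0.210, adjusted p = 0.0249, edgeR) and Tie1 (0.56, SE 0.145, adjusted p = 0.0395, edgeR) added, and 5 had an unadjusted p under 0.05. Over all genes tested 1.48% were called higher, and 4.03% were higher by the adjusted p alone. The adjusted p of Pecam1 was 0.0858 with si-NC replicate 2 left out, 0.152 when si-GPD1L replicate 2 was dropped and 0.0780 when replicate 3 was, and that of Tie1 was over 0.05 in 4 of the 6 such fits, up to 0.211 (edgeR). Without si-NC replicate 1, or without si-GPD1L replicate 2, 1 of these markers was called. Their part in the change of the factors was not tested. Cardiomyocyte markers, of which 0 of 10 were called by edgeR or DESeq2 and 4 had an unadjusted p under 0.05, summed to between 2006 and 2109 CPM in si-NC and between 1824 and 1997 in si-GPD1L. Of the fibroblast markers 0 passed both thresholds, and Lum and Dcn were lower by the adjusted p alone, with log2 fold changes of -0.77 (SE 0.139, adjusted p = 0.00580) and -0.66 (SE 0.136, adjusted p = 0.0129, edgeR). Without si-GPD1L replicate 1 the adjusted p of Dcn was 0.0564, and without replicate 2 it was 0.0842 (edgeR).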

How the data were processed

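The 3 si-NC and 3 si-GPD1L libraries of atrial fibroblasts were sequenced as paired-end poly(A) libraries on an Illumina platform. The authors deposited raw read counts and TPM values per gene and per transcript, where TPM divides each count by the feature length and scales a library to a fixed sum. The submitters' processing notes name bcl2fastq, HISAT2 2.1.0, HTSeq 0.12.4 and genome build rn6, and the strand setting is not given in the sources used here. The authors' own comparison tables (fold changes, p-values) and their Gene Ontology and KEGG tables were not used. Gene counts were analysed in R 4.3.3 with edgeR 4.0.16: filterByExpr, TMM, glmQLFit and glmQLFTest over 14852 genes, with Benjamini-Hochberg adjustment over all of them and calls at an adjusted p below 0.05 with an absolute log2 fold change above 1, the thresholds of the study's methods. The TPM values were used only for levels, shares and ratios, with no test but an exact permutation. Members and lists were chosen with earlier results of these data known. For each list the 3 genes of smallest adjusted p were named at most, besides genes at 0 to 3 counts, neighbours within 5000 bases, the 3 genes most like each member that passed the adjusted p (log2 CPM with a prior count of 2), and the Irf2bp genes, Il15, Casp1, Tap2, B2m, Ciita, Ifit2, Ddx58, Ifih1 and markers, chosen after their values were seen. The fit was tested on simulated data. Libraries with the same replicate number did not deviate together (r from -0.0116 to 0.0434), so the numbers were not taken as pairs, and no libraries of a group agreed within sampling noise (chi-square per degree of freedom 4.12 to 29.9). Alternatives were DESeq2 1.42.0 size factors and Wald test, upper-quartile normalization, edgeR's exact test, other filters, a replicate block, each library left out in turn and the transcript table. Promoters were read from the RefSeq table with Python 3.11.15, and coordinates of rn6 and GRCr8 were kept apart. The intervals of fold changes cover the spread between libraries, and the floors counting error only. A result on a further gene of the lists is not reported here.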

Additional observations from a re-analysis of the deposited data

How the results depend on the processing

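Irf7, Irf9 and Irf1 passed the adjusted p under all 14 alternatives of their fit, with log2 fold changes of 5.70 to 5.95, 1.77 to 1.87 and 0.55 to 0.65, and Irf8 under none, with adjusted p from 0.102 to 0.432 (edgeR and DESeq2). Leaving out 1 library at a time gave Irf2 log2 fold changes from -0.15 to 0.020 and Irf3 from -0.051 to 0.019, so their sign was not fixed. The same step gave the neighbours Bcl2l12 -0.014 to 0.15, Tnpo3 -0.031 to 0.076 and Phrf1 -0.070 to 0.12, and Phrf1 had -0.0012 under upper-quartile normalization, none of them past the threshold. With the replicate number as a block 223 genes were called against 240, and 2 members either way, and the block changed no other call of a member. The adjusted p alone called 945 genes, and the unfiltered fit 359. A minimum of 10 counts in every library left 4 called Irf3, Irf7 and Irf9 targets and 4 called Irf1 targets. It left 5 called inhibitors and co-regulators and 0 called blood-lineage partners, since it removes genes low in si-NC. Without 1 library the endothelial markers called ran from 1 to 3. With transcript TPM summed per gene, Irf9 took place 2, Irf5 place 3 and Irf1 place 5 in si-NC, and Irf5 place 4 and Irf1 place 6 in si-GPD1L. Depth limits Irf4 and the interferon genes, which stood at or near the floor of 3 counts.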
